A study of Homo sapiens with 24 samples.

Results

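The ribosomal RNA peaks of an m1A map in HEK293T, a cell line derived from human embryonic kidney, are described here. m1A is N1-methyladenosine, a methyl mark on adenosine. Every peak on a record whose name ends in _rRNA was taken from the 10 deposited peak lists, which gave 20 of 61237 peaks. Of these, 18 lay on 28S ribosomal RNA (NR_003287.2_rRNA) and 2 on 18S ribosomal RNA (NR_003286.2_rRNA). The RefSeq gene table holds later versions of both records, under the symbols RNA28SN5 and RNA18SN5. Positions are nucleotides (nt) from the 5′ end of the version used in the lists, and genomic positions are not given.

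The study compared m1A profiles of ALKBH3 knockout cells with wild-type cells, and of stressed cells with untreated cells. KO cells lack ALKBH3, a demethylase of alkylated nucleic acids, and had no treatment. WT cells are untreated wild-type cells from the genotype experiment. H2O2 cells are wild-type cells given 50 µM hydrogen peroxide for 30 min. Starve cells are wild-type cells kept for 16 h in medium without serum. UT cells are the untreated wild-type controls of the stress experiment, whose lists were assigned by their names because the sample descriptions point to the Starve lists instead. All other cells grew in medium with 10% serum. Each condition had 2 input and 2 anti-m1A immunoprecipitated (IP) libraries, and KO and WT had 2 labelled libraries each in which the IP was followed by a demethylase. All were made from RNA selected for poly(A) in 2 rounds, whereas mature ribosomal RNA normally carries no poly(A) tail. The labels do not say whether the KO line is 1 clone, nor whether replicates came from separate cultures, so any p-value measures only the spread between these samples. No list holds a peak on ALKBH3 itself (0 peaks), so the knockout could not be checked from them.

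28S is the main RNA of the large ribosomal subunit, and 18S the RNA of the small one. Human 28S is known to carry an m1A in its 5′ portion, placed by the nucleolar methyltransferase RRP8, also called nucleomethylin. The methyl group sits on the base-pairing face of adenosine, so it stops or slows many reverse transcriptases, and a demethylase that removes it lets the cDNA run on in the 5′ direction.

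One 28S peak dominated every list. In the KO lists it spanned nt 666 to 1643 and nt 668 to 1649, with its summit, the position of highest coverage, at nt 1376 in both. In the WT lists it spanned nt 688 to 1711, with the summit at nt 1383, and nt 663 to 1711, with the summit at nt 1376. In the H2O2 lists it spanned nt 993 to 1539 and nt 992 to 1599, with the summit at nt 1266 in both. The Starve lists had it at nt 982 to 1539 and nt 817 to 1543, again with both summits at nt 1266. In the UT lists it ran from nt 990 to 1542, with the summit at nt 1266, and from nt 991 to 1544, with the summit at nt 1262. The 10 summits thus fell into a pair of narrow places, 1 used by all KO and WT lists and the other by all H2O2, Starve and UT lists.

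**Figure D1:**
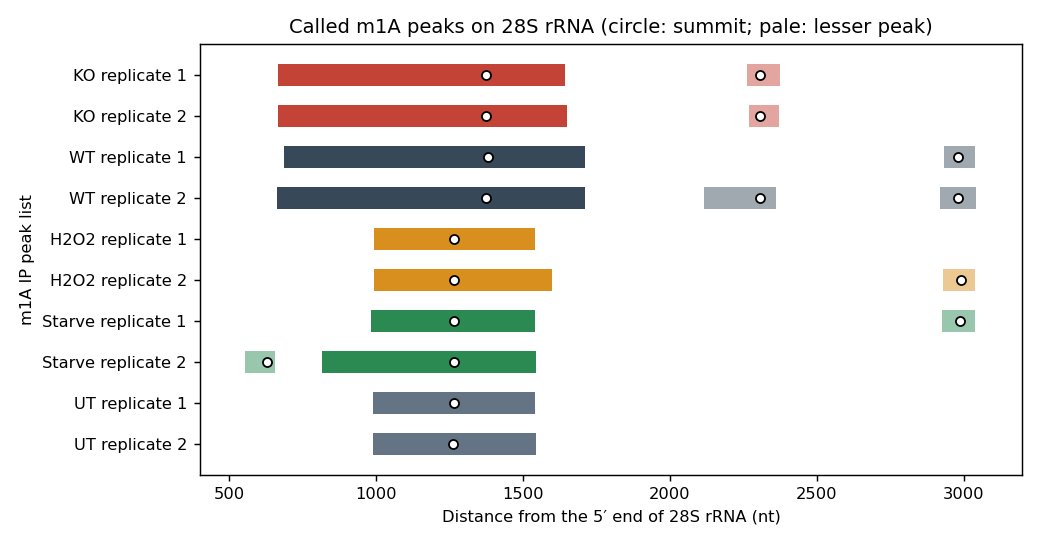
Called m1A peaks along 28S ribosomal RNA in each of the 10 lists (x axis: distance from the 5′ end in nt; bars: peak start to end; circles: summits; pale bars: lesser peaks). The main peak has its summit at nt 1376 to 1383 in the KO and WT lists and at nt 1262 to 1266 in the H2O2, Starve and UT lists, and lesser peaks recur near nt 2307 and nt 2980.

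The pileup is the coverage at the summit, as the peak caller wrote it and with no visible normalization. It was 1532544 and 1622947 in KO, 968016 and 2469564 in WT, 1822150 and 1765075 in H2O2, 1494228 and 1351122 in Starve, and 2014054 and 1422523 in UT. The first WT list held the lowest value and the second WT list the highest, so the WT lists alone enclosed all the others. Because the lists are not scaled to a common depth, these levels were ranked within lists and not tested between them. In all 10 lists 28S had the highest pileup of any peak. The transcript with the next highest pileup was NM_001190470 in every list, which has no symbol in the gene table. The 28S pileup was 1.69 times that of NM_001190470 in the first WT list, and 20.5 to 53.4 times in the 9 other lists. The first WT list stood apart there through the high pileup of NM_001190470, at 571990.0, against 31695 to 84022 elsewhere.

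The fold enrichment is the authors' own value of a peak over its local background, and serves here only as a description within each list. For the main 28S peak it was 85.3 and 90.9 in KO, 163 and 244 in WT, 63.3 and 63.1 in H2O2, 75.8 and 68.1 in Starve, and 90.8 and 85.1 in UT. By fold it held rank 1 in the second KO and second WT lists, rank 2 or 3 in 7 lists and rank 5 in the first WT list. Dividing pileup by fold approximates the local background that the caller set against the peak. That background was 17967 and 17858 in KO, 5939.9 and 10101 in WT, 28794 and 27994 in H2O2, 19719.9 and 19850.0 in Starve, and 22176 and 16712 in UT. The WT lists, with the highest folds, were the 2 with the lowest background, whereas their pileups were the extremes in both directions.

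**Figure D2:**
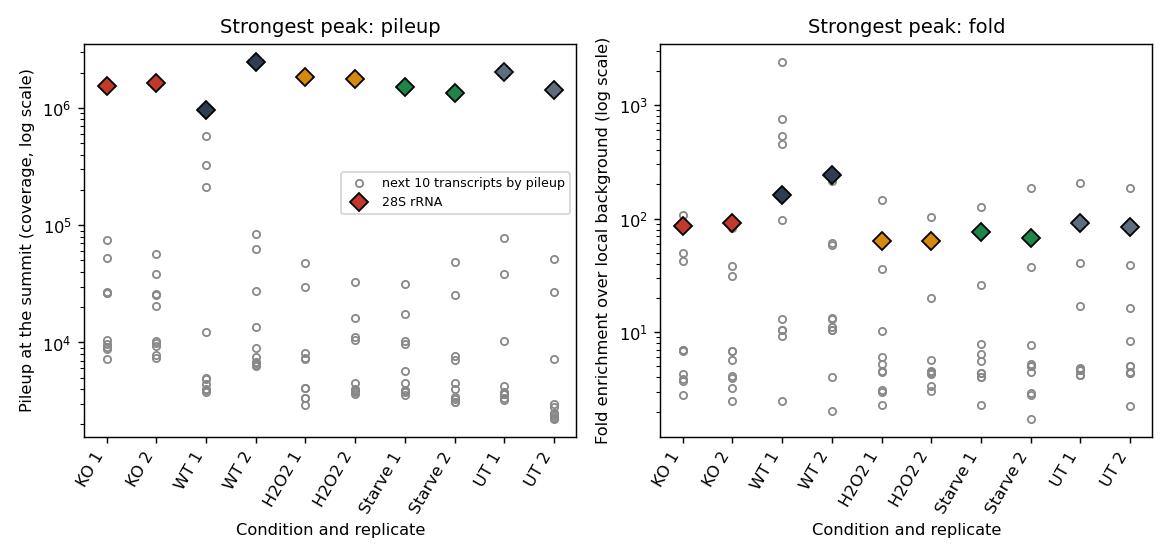
Pileup (left) and fold enrichment (right) of the strongest 28S peak (diamonds) beside the 10 other transcripts with the highest pileups (open circles), per list, on log axes. 28S has the highest pileup in all 10 lists, but the highest fold in 2 of them, and NM_001190470 in the first WT list reaches a fold of 2398.

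Among 143 transcripts with a peak in all 10 lists, likeness to 28S was measured as the mean absolute difference in fold percentile over the 10 lists. NM_001190470 was closest, at 0.0423 percentage points, followed by NM_001190702, also without a symbol, at 1.63 points. Next came the pseudogene transcript SPRNP1 (NR_033789), at 2.70 points. SPRNP1 folds were far lower than those of 28S, at 9.58 and 7.52 in KO, 12.8 and 34.6 in WT, and 10.2 to 34.0 in the 6 other lists. The likeness is thus one of rank within each list and not of fold.

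The genotype comparison asked how m1A peaks differ when ALKBH3 is missing. The summit of the main 28S peak averaged nt 1376.0 ± 0.0 in KO and nt 1379.5 ± 4.95 in WT (SD, n = 2 lists each). The difference was -3.5 nt, smaller in size than the SD of 4.95 nt in the WT lists. An exact permutation test gave p = 1.0 (two-sided). Only the first WT list departed from nt 1376, so every split of the lists gave a difference of the same size. The p-value was thus fixed by these ties and does not measure spread. With 2 lists against 2, the smallest p such a test can give is 0.33. Groups of summits did not overlap in 41.2% of the 488 regions called in all 4 lists, and 28S was not among them. Peak width was 978 and 982 nt in KO, against 1024 and 1049 nt in WT, so both KO peaks were narrower than both WT peaks. The means were 980.0 ± 2.83 nt in KO and 1036.5 ± 17.7 nt in WT, a difference of -56.5 nt (exact permutation p = 0.33, the smallest possible, n = 2 each). Width groups failed to overlap in 49.8% of the 488 regions, and in 25.8% with KO narrower, so such a separation was common. In 28S it lay at the 3′ end of the peak, at nt 1643 and 1649 in KO, against nt 1711 in both WT lists, whereas the 5′ ends overlapped. The midpoint of the peak thus differed more than the summit, by -36.8 nt for KO minus WT, without overlap (exact permutation p = 0.33, the smallest possible, n = 2 each). KO midpoints lay further 5′ without overlap in 14.1% of the 488 regions.

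In the stress experiment the 28S summit stayed within 4 nt over all 6 lists. It averaged nt 1266.0 ± 0.0 in H2O2 and nt 1264.0 ± 2.83 in UT (exact permutation p = 1.0, n = 2 each). Starve gave nt 1266.0 ± 0.0 against the same UT lists (exact permutation p = 1.0, n = 2 each). In both comparisons only the second UT list departed from nt 1266, so these p-values were likewise fixed by ties. Summit groups did not overlap in 30.1% of 349 regions for H2O2 against UT, and in 32.9% of 438 regions for Starve against UT, and in neither was 28S among them. Widths were 547 and 608 nt in H2O2, against 553 and 554 nt in UT, so the H2O2 lists lay on both sides of the UT lists (difference 24.0 nt, exact permutation p = 1.0, n = 2 each). Width groups failed to overlap in 33.5% of those 349 regions. Starve widths were 558 and 727 nt, both above the UT lists (difference 89.0 nt, exact permutation p = 0.33, the smallest possible, n = 2 each). Starve was wider without overlap in 23.1% of the 438 regions. The size of this difference rested on the second Starve list, whose peak began at nt 817 rather than near nt 990, and without it the difference was 4.5 nt.

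The largest contrast in the position of the 28S peak was between the experiments, not within them. The rule that chose these peaks named this difference in summits, so it is given as a description with no test. Summits lay at nt 1376 to 1383 in the 4 KO and WT lists, against nt 1262 to 1266 in the 6 H2O2, Starve and UT lists, a mean difference of 112 nt. Peaks were 978 to 1049 nt wide in the KO and WT lists, against 547 to 727 nt in the H2O2, Starve and UT lists. Most of that extra width was on the 5′ side. The summit stood 695 to 713 nt from the 5′ end of the peak in KO and WT, against 271 to 449 nt in the stress experiment. On the 3′ side the distances from the summit overlapped, at 267 to 335 nt in KO and WT, against 273 to 333 nt in the stress experiment. Because the summits differed too, both edges of the peak differed in position without overlap. Peaks began at nt 663 to 688 in KO and WT, against nt 817 to 993 in the stress experiment. They ended at nt 1643 to 1711, against nt 1539 to 1599. The mean midpoint of the peak in the KO and WT lists minus that in the stress lists was -81.0 nt, the opposite direction to the summits. Unlike the summits, the midpoints overlapped, since that of the second Starve list lay 5′ of both WT midpoints.

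The same measures in the 93 regions that all 10 lists called are given for scale. Summits lay further 3′ in KO and WT without overlap in 7.53% of these regions, 28S included, and 2 of the 92 others had as large a difference in either direction. The median of the others was 5.92 nt. Peaks were wider in KO and WT without overlap in 9.68%. The 28S difference of 417 nt was reached by 1 of the 92 others, whose median was 21.0 nt. Over all peaks of a list, the median width was 117 to 130 nt in the KO and WT lists, against 100 nt in each stress list. UT and WT are both untreated wild-type cells by their labels. Their 28S summits averaged nt 1264.0 ± 2.83 in UT and nt 1379.5 ± 4.95 in WT (SD, n = 2 each), a difference of -115.5 nt. This is part of the same contrast between experiments and was likewise not tested. The UT minus WT difference in width was -483 nt. Of the 399 regions called in all UT and WT lists, 33.8% had UT summits at lower positions without overlap, and 8.02% at higher positions. UT peaks were narrower without overlap in 38.8% and wider in 4.26%. The medians of the 398 other regions were -5.5 nt for the summit and -19 nt for the width. As large a difference in either direction was reached by 9 of these others for the summit and by 1 for the width. Experiment and library preparation cannot be told apart with these lists.

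Windowed coverage, which is available for KO and WT, showed the shape of the main 28S peak at finer scale. The files give coverage of the demethylase-treated IP and of the IP in windows of 10 nt every 5 nt, scaled by the authors to one total per region (198 to 205 in the 28S regions). A value is therefore a share of that region's coverage, not a level of RNA or of m1A. A check of the replicates preceded any use. In each of the 776 KO regions and 351 WT regions with matching windows, the demethylase-treated values of the replicate files were proportional to each other, within a relative tolerance of 1e-06. Of the IP values, 0 of 778 KO regions and 0 of 355 WT regions were proportional. Over the 215 matching 28S windows of WT, the ratio of replicate 1 to replicate 2 was 1.0009 throughout for the demethylase-treated coverage, whereas it ranged from 0.683 to 1.79 for the IP. The demethylase-treated coverage was therefore counted as 1 library per genotype, and no test was made on it. A single library and a pool of the labelled libraries cannot be told apart here.

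**Figure D3:**
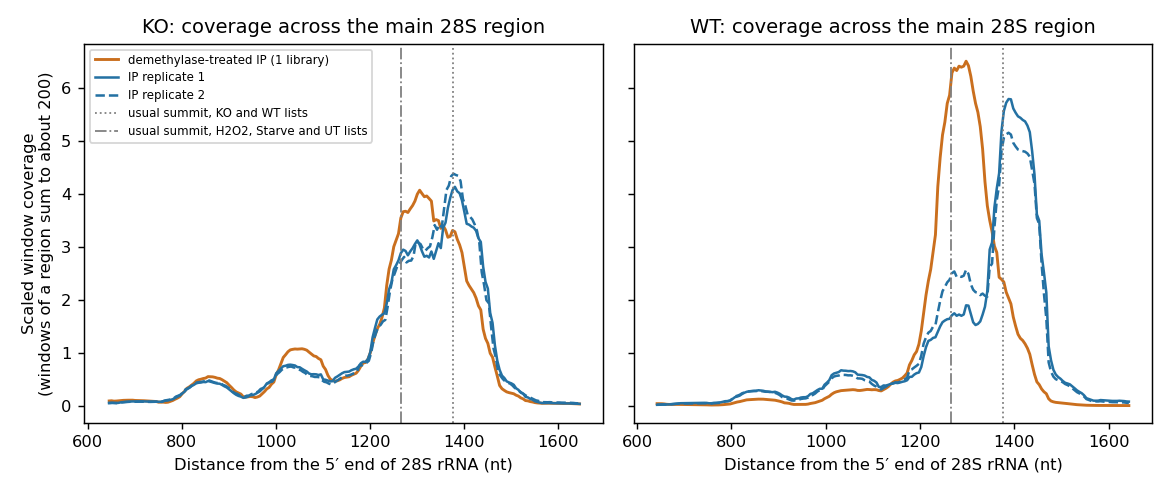
Scaled window coverage across the main 28S region in KO (left) and WT (right) against the distance from the 5′ end of 28S in nt. Curves are the demethylase-treated IP (counted as 1 library per genotype) and the 2 IP replicates. Vertical lines mark nt 1376 and nt 1266, the usual summits of the genotype and stress lists. The demethylase-treated curve peaks near nt 1300 and the IP curves near nt 1380 to 1390, with a wider gap between them in WT.

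After demethylase treatment, the coverage of the main 28S region was highest near nt 1300 in both genotypes, while the IP coverage was highest 75 nt further 3′ in KO and 90.0 nt further 3′ in WT. The demethylase-treated maximum lay in the window at nt 1301 to 1310 or nt 1298 to 1307 in KO, since the windows of the KO files start at different places, and at nt 1293 to 1302 in WT. The IP maximum lay at nt 1376 to 1385 and nt 1373 to 1382 in KO, and at nt 1383 to 1392 in both WT libraries. Each IP profile also had a second, lower maximum at nt 1298 to 1300. It reached 75.3% and 70.8% of the IP maximum in KO, against 32.7% and 49.2% in WT. Walking in the 3′ direction, the demethylase-treated curve passed below the IP curve at nt 1357 and 1350.2 in KO, and at nt 1354 and 1356 in WT. All 4 crossings lay between the lowest IP window from nt 1266 to nt 1376 and the IP maximum 3′ of it. In the second KO library that lowest window was at nt 1273 to 1282, which is 5′ of its lower maximum at nt 1300.

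The 2 usual summits served as fixed places at which to read the windows. The place at nt 1376 was set by the peaks of these same KO and WT IP libraries. A ratio below 1 there was thus favoured in advance. With a fixed total per region, a lower share at a place is also offset by higher shares elsewhere. The direction of the ratios is therefore a description only. At nt 1376, the summit of the genotype lists, the demethylase-treated coverage in KO was 3.30 and 3.28 and the IP coverage 4.10 and 4.36. In WT it was 2.36 in both files after demethylase, against 5.37 and 4.93 in the IP. This is a ratio of 0.803 and 0.752 in KO, against 0.439 and 0.478 in WT. At nt 1266, the summit of the stress lists, the order was the other way round. The demethylase-treated coverage there was 3.60 and 3.45 in KO and 6.07 in both WT files, against IP values of 2.91 and 2.71 in KO and 1.67 and 2.44 in WT. The ratio was 1.24 and 1.27 in KO, against 3.63 and 2.49 in WT. KO and WT thus had the same direction at both places, with ratios nearer to 1 in KO. On the scale of log2(value + 0.5), the ratio in KO minus that in WT was 0.66 at nt 1376 and -1.10 at nt 1266, with no test.

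Shares of the region put the same profiles in percent. Over nt 638 to 1650, the span all 4 files share, 40.0% of the demethylase-treated coverage of KO lay 3′ of nt 1321, the midpoint between the usual summits, against 31.0% in WT. Of the IP coverage, 49.2% and 51.2% lay there in KO, against 65.9% and 60.4% in WT. The IP share averaged 50.2% ± 1.42 in KO and 63.1% ± 3.90 in WT (SD, n = 2 libraries each). Both KO libraries lay below both WT libraries, with a mean difference of -12.9 percentage points (exact permutation p = 0.33, the smallest possible). Demethylase treatment and IP differed by -9.27 and -11.2 points in KO, against -34.9 and -29.3 points in WT. The KO share was thus lower than the WT share in the IP and higher after demethylase treatment, the second with no replicate.

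In bins of 100 nt, nt 1250 to 1349 held 36.8% of the demethylase-treated coverage in KO and 56.6% in WT. The same bin held 28.9% and 29.3% of the IP coverage in KO, against 17.8% and 23.3% in WT. The next bin, nt 1350 to 1449, held 25.8% of the demethylase-treated coverage in KO and 17.4% in WT, and of the IP coverage 34.6% and 36.0% in KO, against 49.8% and 45.1% in WT. The 5′ arm of the region, up to nt 1149, differed in another way. It held 20.9% of the demethylase-treated coverage in KO, more than the 17.5% and 17.0% of the IP, but 6.33% in WT, less than the 13.2% and 12.0% of the IP. Small maxima of the IP lay there in both genotypes. Near nt 1030 they were at nt 1028 and 1030.0 in KO, at 18.8% and 16.8% of the main maximum, and at nt 1035 in both WT libraries, at 11.5% and 11.4%. Others lay at nt 858 and 860.0 in KO, at 11.2% and 10.7%, and at nt 860.0 in the second WT library, at 5.45%. Maxima were counted only above a minimum rise over their surroundings. The first WT library had a local high at the same place that was not counted under that rule. Its window coverage centred at nt 857.5 was 0.291, against 0.283 in the second WT library.

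**Figure D4:**
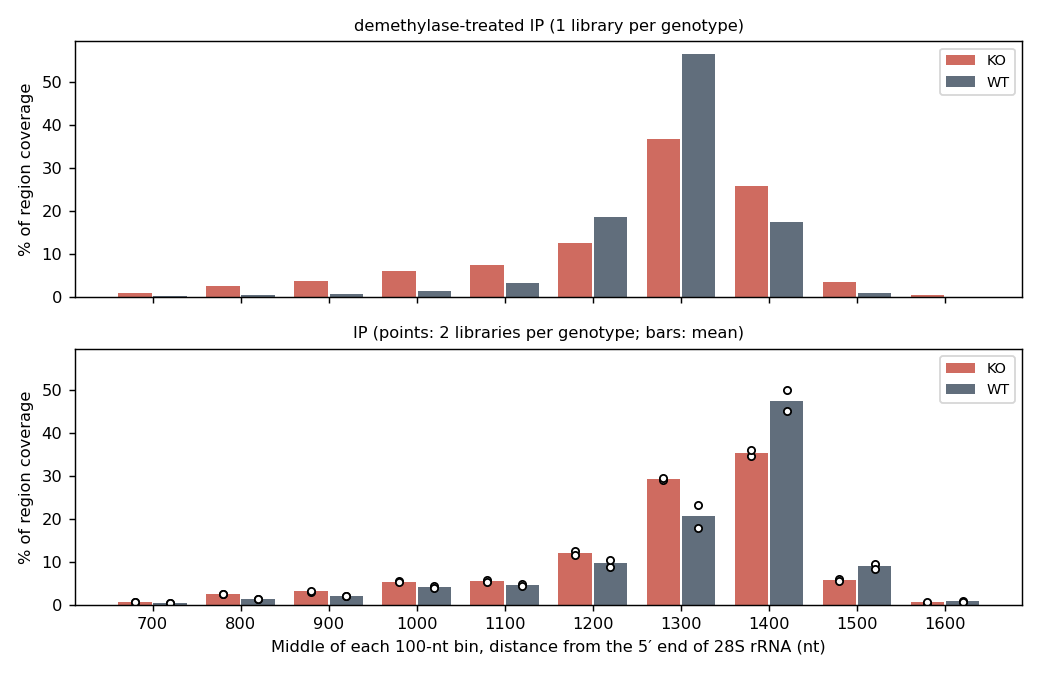
Share of the main 28S region's coverage (y axis, %) in bins of 100 nt (x axis, bin middle in nt from the 5′ end). The top panel is the demethylase-treated IP (counted as 1 library per genotype). The bottom panel is the IP, where bars are means of the 2 libraries shown as points. WT has the taller bar at nt 1250 to 1349 after demethylase and at nt 1350 to 1449 in the IP.

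The centroid, the coverage-weighted mean position, allowed 28S to be set beside other regions. It lay at nt 1254 in the demethylase-treated KO coverage and at nt 1278 and 1281 in the KO IP libraries. In WT it lay at nt 1282 after demethylase and at nt 1322 and 1316 in the IP. The IP centroid averaged nt 1279 ± 1.80 in KO and nt 1319 ± 4.22 in WT (n = 2 each), a difference of -39.3 nt (exact permutation p = 0.33, the smallest possible). IP centroids lay further 5′ in KO without overlap in 17.7% of the 368 regions windowed in all 4 files. In nt, 0 of the 367 other regions had a difference as low, and their median was 2.50 nt. The 28S span of 1013 nt was long, however, against a median of 161 nt. As a percentage of the span, its difference was -3.88%, and 28 of the 367 others were as low.

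From IP to demethylase treatment the 28S centroid differed by -25.3 nt in KO and by -36.7 nt in WT, that is, it lay further 5′ after treatment in both. A 5′ move in both genotypes was found in 27.7% of the 368 regions, and one that was also longer in WT in 17.7%. The medians of the other regions were 0.41 nt in KO and -0.36 nt in WT, both close to 0. In nt, 4 of the 367 others had as low a value as 28S in KO, and 4 in WT. As a percentage of span the 28S values were -2.49% in KO and -3.62% in WT, and 93 and 116 of the others were as low. The 28S shift was thus among the longest in nt but ordinary relative to the width of its region.

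**Figure D5:**
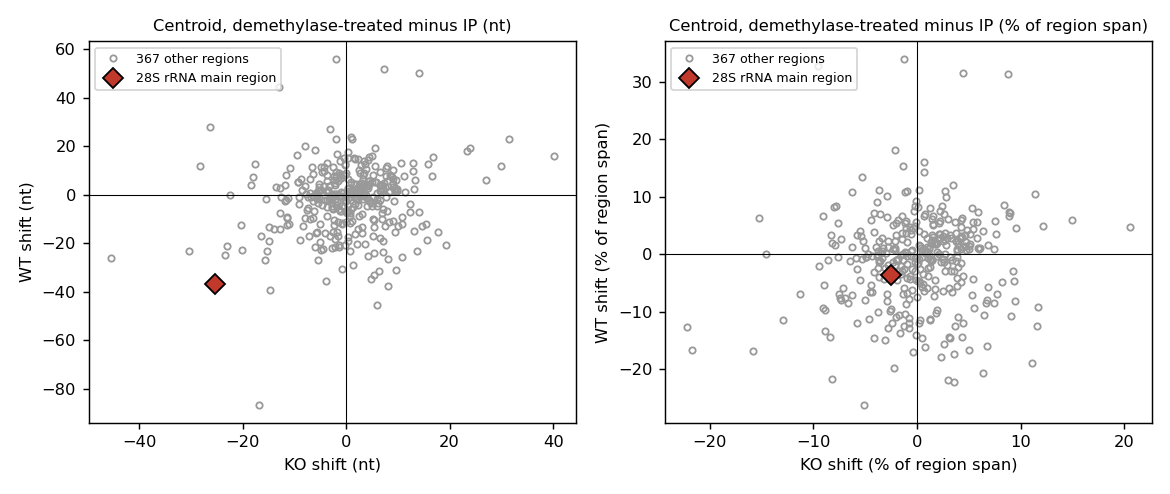
Centroid of the demethylase-treated coverage minus that of the IP in KO (x axis) and WT (y axis), in nt (left) and in % of the region's span (right), for 28S (diamond) and 367 other regions (circles). 28S lies at -25.3 nt in KO and -36.7 nt in WT, and at -2.49% and -3.62% of its span.

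Besides the main peak, 28S carried 8 lesser peaks at 3 places, all of low fold. A peak with its summit at nt 2307 was called in both KO lists (fold 2.84 and 2.61) and in the second WT list (2.69). A peak with its summit at nt 2980 to 2992 was called in both WT lists (2.55 and 3.45), the second H2O2 list (3.10) and the first Starve list (3.22). The first H2O2 list and both UT lists had the main peak alone. A single peak at nt 555 to 656, with a fold of 1.62, was called in the second Starve list. Their pileups of 9182 to 93369 were 18.9 to 117 times lower than that of the main peak of the same list. By pileup they still held ranks 2 to 7 in their lists, whereas their folds lay at percentiles 1.29 to 40.5. A call in 1 list and not in another is not a measured difference, because the lists give no value for a place that was not called.

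Both places had windows, nt 2307 in KO and nt 2980 in WT, and there the demethylase-treated coverage lay further 3′ than the IP. Around nt 2307 its maximum was 20 nt further 3′ in both KO files, and its centroid 5.43 and 4.90 nt further 3′. Around nt 2980 in WT the maximum was 15 and 20 nt further 3′, and the centroid 12.1 and 12.7 nt. The direction was thus opposite to that of the main region, again with treated coverage counted as 1 library per genotype. Over the 367 other regions windowed in all 4 files, the centroid shift had quartiles of -4.27 and 5.30 nt in KO. In WT they were -9.71 and 5.73 nt. Of these regions, 47.4% moved 5′ in KO and 50.4% in WT, so a 3′ move was common too.

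18S had peaks in the second H2O2 list alone. One spanned nt 565 to 668, with its summit at nt 610, a pileup of 2714 and a fold of 3.13. The other spanned nt 1159 to 1448, with its summit at nt 1352, a pileup of 3013 and a fold of 7.22. The main 28S peak of that list had 650.4 and 586 times their pileups. With 1 of 2 H2O2 lists calling them, no comparison of 18S between conditions was made.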

How the data were processed

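MACS2, HISAT, Trim Galore and the build hg19 are named in the submitters' processing notes, with no version or order. Per the file headers, MACS2 called peaks for each replicate, on RefSeq records in place of chromosomes. The deposited pileup is a coverage signal, the fold enrichment a ratio to local background, and the −log10 p-value and q-value are also as deposited. The windowed coverage signal was scaled by the authors. The control input of each list was not given in the sources used here, and total depth per library is unknown.

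Lists were assigned to samples by their names. The descriptions of the UT libraries point to the Starve lists, so every UT value rests on the list names. Peaks overlapping by 1 nt or more were joined into regions, with the strongest peak per list. Transcripts of 1 gene can repeat a signal. Exact two-sided permutation tests over lists were used (Python 3.11.15, numpy 2.4.6), and the across-region scripts were tested on simulated data. The permutation test planned for the demethylase-treated to IP ratio was not made, because the treated values were counted as 1 library per genotype. Windows were averaged per nt for shares. The members, lists and measures were chosen with earlier results of these data known. Named transcripts are the one with the next highest pileup and the 3 closest to 28S in fold percentile. Alternatives were peak midpoints, weighted means, stricter thresholds, other overlaps and pseudocounts, and left-out replicates.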

Additional observations from a re-analysis of the deposited data

How the results depend on the processing

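With 2 lists per group no test could pass 0.05, so the alternatives bear on values only. With the pileup-weighted mean over all 28S peaks, the summit difference became 1.19 nt for KO minus WT, 45.4 nt for H2O2 minus UT and 28.1 nt for Starve minus UT. With the peak midpoint in place of the summit, KO minus WT became -36.8 nt, H2O2 minus UT 14.0 nt and Starve minus UT -46.5 nt. The KO and WT lists minus the stress lists became -81.0 nt, with overlap between the groups. With a fold of 4 or more, 11 of the 20 ribosomal RNA peaks remained. They were the 10 main 28S peaks and 1 on 18S. A minimum of 5 for the −log10 q-value kept all 20. With a pseudocount of 1 the log2 ratio at nt 1376, KO minus WT, was 0.59. The weighted means counted lesser peaks, with summits at nt 2992 in the second H2O2 list and nt 2989 and 628 in the Starve lists. The UT lists had no lesser peak, and the main summits themselves were the same under this alternative. Why the lists differed in such calls or in peak edges was not tested. Leaving out each list in turn gave widths of -69.0 to -44.0 nt for KO minus WT, -6.5 to 54.5 nt for H2O2 minus UT and 4.5 to 173.5 nt for Starve minus UT. The widths at -6.5 nt and 54.5 nt were those without the second and without the first H2O2 list, and 4.5 nt was that without the second Starve list. Summit differences were -7.0 to 0 nt for KO minus WT and 0 to 4.0 nt for H2O2 or Starve minus UT. The summit difference between experiments stayed at 111 to 113 nt, and the KO minus WT share of IP coverage 3′ of nt 1321 at -15.7 to -10.2 points. Same-numbered lists showed no shared deviation in KO and WT (correlation 0.00068 over 488 regions), 0.12 in H2O2 and UT and -0.10 in Starve and UT. With the replicate number as a block, differences were the same by construction, so this was no check of their size. An exact permutation test that swaps labels within pairs gave p = 0.5 for the KO minus WT width of -56.5 nt. That is the smallest 2 pairs allow. Window values hold no depth, so none of their counting error can be given.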
